A study of Mus musculus with 16 samples.

Results

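Amino acids cross membranes through solute carriers, and the genes described here are those of the families Slc1, Slc3, Slc6, Slc7, Slc36, Slc38 and Slc43, found by their symbols in the deposited table with Slc6a2 left out. The table of 17715 entries held 23 such genes, and 15 of them had at least 1 RPKM (reads per kilobase of transcript, scaled to the reads of the library) in at least 4 of the 16 libraries and were tested. RNA was sequenced from lung endothelial cells, the lining of the blood vessels of the lung, sorted from female C57BL/6N mice in 4 groups of 4 libraries. The groups were wild-type mice without a tumour (d0), mice with a primary tumour (d15), mice after its resection (d22) and mice with metastases (d36). The tumour was the Lewis lung carcinoma, an established mouse line, placed under the skin of the mice. The series design calls the 4 libraries of a time point independent biological replicates. The sources used here give neither the age of the mice nor the sorting gate. The title of d36 replicate 1 gives day 29, whereas its time point field, followed here, gives day 36.

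An endothelial cell takes up amino acids for its own protein and nitric oxide synthesis and passes them on to the tissue. Slc3a2 codes for the heavy chain of heteromeric exchangers, which brings a light chain of the Slc7 family to the cell surface. The Slc1 and Slc38 members named here carry neutral amino acids such as glutamine, alanine and serine, many of them with sodium. When amino acids run short, the kinase Gcn2 and the factor Atf4 raise the transcription of many of these transporter genes. The symbol rule is wider than the function: Slc7a6os codes for a protein linked to nuclear import of RNA polymerase II, Slc43a3 for a purine nucleobase transporter and Slc6a8 for a creatine transporter.

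Promoters are shown for 5 genes, from 250 bases before to 50 after a RefSeq start (GRCm38.p6), all on the minus strand. Slc3a2 (chr19:8713848-8714147) was the gene that changed at d15, and Slc38a2 (chr15:96699679-96699978) and Slc38a4 (chr15:97055907-97056206) were higher at d36. Slc1a4 (chr11:20332664-20332963) and Slc7a7 (chr14:54417895-54418194) were the genes whose window held the C/EBP-ATF response element, TGATGNAA on either strand, which Atf4 binds in amino acid shortage. Capitals mark that element and the CCAAT box, searched on both strands.
Slc3a2: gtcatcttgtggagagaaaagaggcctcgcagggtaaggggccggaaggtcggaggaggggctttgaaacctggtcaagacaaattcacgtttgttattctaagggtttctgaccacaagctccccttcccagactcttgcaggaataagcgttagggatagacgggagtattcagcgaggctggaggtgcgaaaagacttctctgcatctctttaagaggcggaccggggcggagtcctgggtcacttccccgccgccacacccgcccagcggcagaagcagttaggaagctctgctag
Slc38a2: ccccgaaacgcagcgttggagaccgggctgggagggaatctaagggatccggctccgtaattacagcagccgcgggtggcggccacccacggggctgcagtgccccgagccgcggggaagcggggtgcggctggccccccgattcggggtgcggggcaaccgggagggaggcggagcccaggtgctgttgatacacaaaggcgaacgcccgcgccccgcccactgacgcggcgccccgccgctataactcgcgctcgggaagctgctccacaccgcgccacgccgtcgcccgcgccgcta
Slc38a4: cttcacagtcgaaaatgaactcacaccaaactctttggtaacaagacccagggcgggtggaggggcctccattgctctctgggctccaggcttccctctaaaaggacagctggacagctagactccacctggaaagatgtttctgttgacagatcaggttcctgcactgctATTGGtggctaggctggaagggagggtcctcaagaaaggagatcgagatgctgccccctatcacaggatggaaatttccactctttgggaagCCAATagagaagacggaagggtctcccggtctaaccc
Slc1a4: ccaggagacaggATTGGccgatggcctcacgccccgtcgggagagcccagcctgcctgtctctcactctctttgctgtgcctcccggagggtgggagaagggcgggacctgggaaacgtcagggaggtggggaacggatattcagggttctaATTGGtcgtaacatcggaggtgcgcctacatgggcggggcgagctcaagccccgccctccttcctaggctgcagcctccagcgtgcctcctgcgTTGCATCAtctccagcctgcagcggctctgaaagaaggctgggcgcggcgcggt
Slc7a7: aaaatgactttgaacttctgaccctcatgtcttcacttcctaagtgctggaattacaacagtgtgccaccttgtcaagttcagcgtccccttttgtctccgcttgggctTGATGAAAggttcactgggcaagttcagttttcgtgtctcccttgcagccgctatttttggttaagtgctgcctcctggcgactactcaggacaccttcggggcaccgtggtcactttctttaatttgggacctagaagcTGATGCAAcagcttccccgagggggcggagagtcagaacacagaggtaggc

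RefSeq promoters were matched for 17 of the 23 genes, 28 windows in all. The C/EBP-ATF element stood in 3 of the 28 windows (10.7%), from Slc1a4 and Slc7a7, against 3.97% of all 32851 windows of that length. Windows of one gene can overlap: the 3 windows held 3 distinct sites, in 2 of the 17 genes, and the site at -1 in Slc7a7 was counted in 2 overlapping windows. Its first base lay at position -4 from the start in Slc1a4, and at -141 and -1 in the Slc7a7 window shown. The CCAAT box stood in 10 of the 28 windows, or 35.7%, against 37.4% of all windows, and the E-box CACGTG in 1, or 3.57%, against 7.15%. In the shown window of Slc38a4 CCAAT boxes began at -79 and 13, and the windows of Slc3a2 and Slc38a2 held none of the 3 motifs. None of the motifs overlapped another in the windows shown. The start of the Slc3a2 window lies inside the gene as GENCODE M21 annotates it, on chromosome 19 from 8706882 to 8723369.

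Approximate depth, worked out from the steps of low values, lay between 93.0 and 151.4 megareads per library, with 102.7 to 151.4 in the d36 group and at most 125.3 in the other groups. Pan-endothelial markers were high throughout, with 10 genes that added up to 3330 to 5900 RPKM. Libraries of a group had a correlation across genes of 0.92 to 0.984 in the d36 group and of at least 0.978 in each of the others. Replicate 9 of d36 stood apart from the other 3 d36 libraries, and d36 results of the transporter genes that passed are given with and without it.

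Levels among the 23 genes spanned a wide range. Slc3a2, with a mean of 419 RPKM over the 16 libraries, and Slc43a3, with 236 RPKM, held 52.6% and 29.7% of their summed RPKM. Next came the sodium-coupled neutral transporter gene Slc38a2 (43.9 RPKM), the taurine transporter gene Slc6a6 (27.6), Slc38a10 (23.4) and Slc7a7, a light chain of cationic amino acid exchange (18.3). The other 17 genes had means of 0.0515 to 4.84 RPKM. Below the filter stayed 8 genes: Slc1a4, Slc38a1, Slc38a4, Slc3a1, Slc43a2, Slc6a14, Slc6a9 and Slc7a5. Of these, Slc1a4, Slc38a1, Slc38a4, Slc6a9 and Slc7a5 had at least 1 RPKM in 3 libraries, 1 short of the filter.

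**Figure D1:**
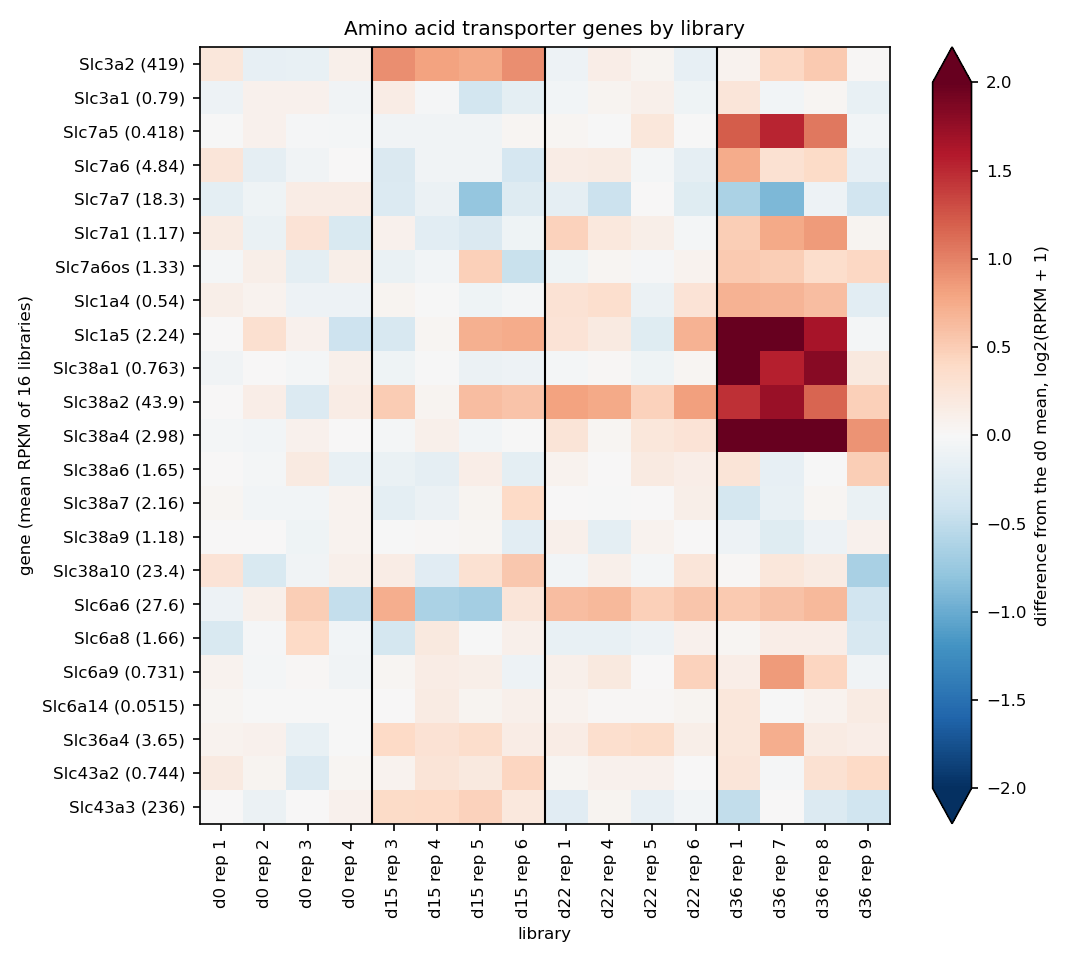
Heat map of the 23 genes (rows, with the mean RPKM of 16 libraries) in every library (columns), coloured by the difference from the d0 mean on the log2(RPKM + 1) scale, with the colour capped at 2 in either direction. Slc3a2 is higher in all 4 d15 libraries, and Slc1a5, Slc38a1, Slc38a2, Slc38a4 and Slc7a5 are highest in d36 replicates 1, 7 and 8.

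Changes were tested with limma on log2(RPKM + 1), in one fit of all 14303 entries that passed the filter, with p-values adjusted by the Benjamini-Hochberg method within each comparison and a threshold of 0.05. This scale understates fold changes of genes at low RPKM. Counts at an unadjusted p under 0.05 are given without the share of all entries, so they do not show whether a list stood out. An F test over the time points against d0 called 6 of the 15 genes, or 40%, against 28.7% of all entries tested: Slc3a2 (adjusted p = 0.000763), Slc38a2 (0.00347), Slc43a3 (0.00406), Slc1a5 (0.0269), Slc7a1 (0.0324) and Slc7a6os (0.0472). The count was 3 without d36 replicate 1, 7 or 8, and 6 without replicate 9. The shares of all entries in those fits are not given.

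**Figure D2:**
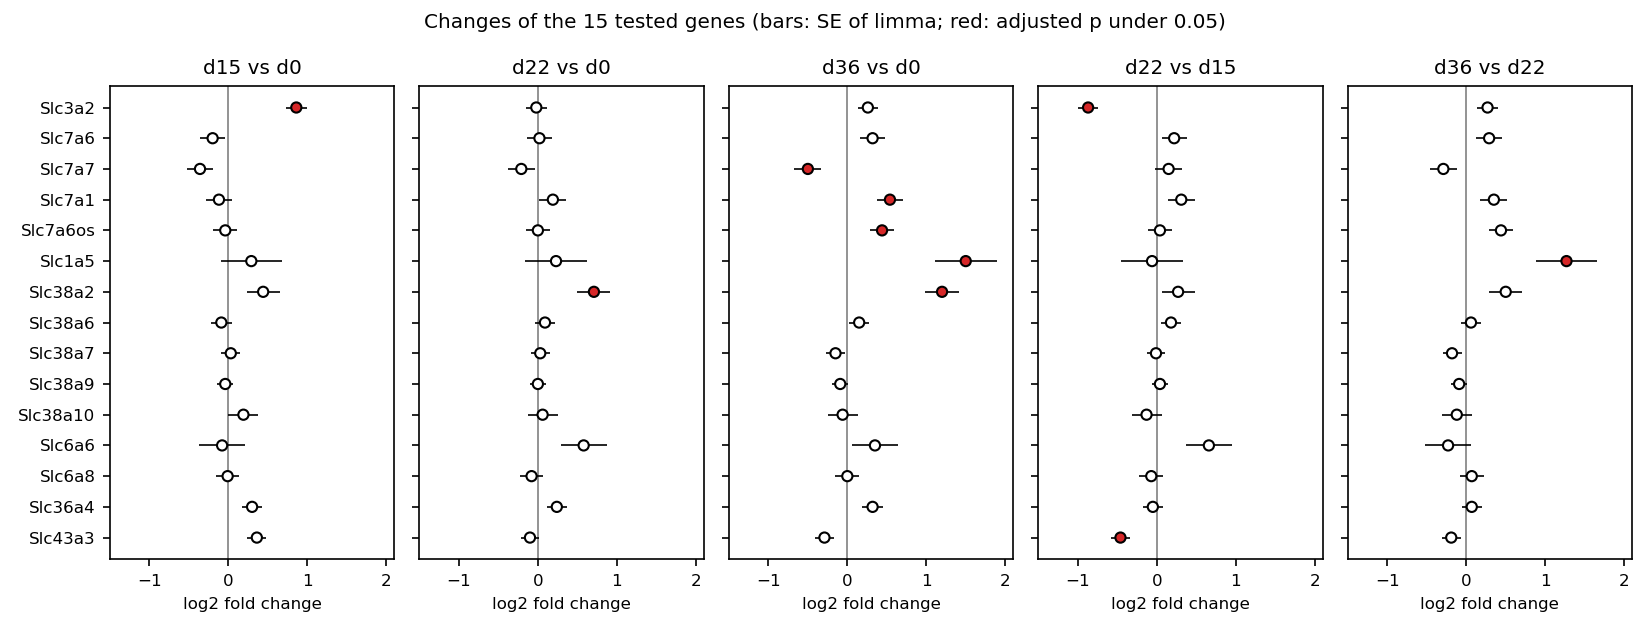
Log2 fold changes of the 15 tested genes on the log2(RPKM + 1) scale in 5 comparisons, each the first time point over the second. Bars give the standard error of limma and red points passed at an adjusted p under 0.05, among them Slc3a2 at d15 against d0 (0.86) and Slc38a2 at d22 (0.71) and d36 (1.2) against d0.

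The comparison of d15 with d0 asks which transporter genes differed while a tumour grew at another site. Slc3a2 had 639, 581, 567 and 633 RPKM at d15, against 389, 296, 300 and 357 RPKM at d0. All d15 libraries lay above all d0 libraries, with means of 605 ± 36.2 RPKM at d15 and 336 ± 45.0 RPKM at d0 (SD, n = 4 each). The rise was 0.86 ± 0.13 on the log2 scale (SE, limma, adjusted p = 0.0106), and it passed whichever of the 8 libraries was left out (adjusted p at most 0.0462). Slc3a2 was the 1 gene of the 15 that rose, 6.67% of them, against 0.608% of all entries. With an unadjusted p under 0.05, 4 were higher, with no share of all entries to judge that count by. None of the 15 fell in limma, against 0.573% of all entries, and 1 was lower at an unadjusted p under 0.05.

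The 3 light chain genes of Slc3a2 found in the deposited table did not show that pattern. Slc7a7 averaged 17.1 ± 3.32 RPKM at d15 and 22 ± 2.71 RPKM at d0, and Slc7a6, another light chain of cationic exchange, 3.89 ± 0.469 RPKM at d15 and 4.62 ± 0.721 RPKM at d0, with overlapping ranges in both genes. Slc7a5, the light chain for large neutral amino acids, had 0.0616, 0.0633, 0.0617 and 0.143 RPKM at d15, against 0.106, 0.183, 0.097 and 0.0856 RPKM at d0. The 3 light chain genes together reached 16.6 to 24.3 RPKM at d15 and 24.6 to 29 RPKM at d0, so that Slc3a2 stood at 23.9 to 34.1 times their sum at d15 and at 10.5 to 15.8 times at d0. RPKM values are per length, and they measure RNA, not protein. The symbol rule found no other light chain gene of Slc3a2 in the deposited table. Slc3a1, the other heavy chain gene of the family, had 0.399 to 1.0 RPKM at d15 and 0.684 to 0.926 RPKM at d0.

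Ranges at d15 and d0 also parted for 2 further genes that did not pass. Slc43a3 had 305, 307, 321 and 271 RPKM at d15, against 235, 216, 236 and 248 RPKM at d0 (log2 difference 0.36 ± 0.12, adjusted p = 0.127). Slc36a4, a high-affinity transporter of proline and tryptophan, had 4.24, 3.85, 4.05 and 3.41 RPKM at d15, against 3.15, 3.22, 2.60 and 2.95 RPKM at d0 (0.30 ± 0.13, adjusted p = 0.254). With Slc3a2 these are 3 of 15 genes, 20%, whose d15 libraries all lay above d0, against 5.34% of all entries. The authors' deposited table, which does not name its comparison group, lists adjusted p-values of 1.53e-11 for Slc3a2, 0.0026 for Slc43a3, 0.0129 for Slc36a4 and 0.0235 for Slc38a2 at d15.

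Markers of other cells were not alike at d15 and d0. The erythroid sum, of 2 genes found, was 4.26 to 19.3 RPKM at d15 and 0.655 to 1.73 RPKM at d0. Of the 2 genes 1 rose, 50%, against 0.608% of all entries. The lung epithelium sum was 1240 to 3400 RPKM at d15 and 760 to 1950 RPKM at d0. Of 7 tested epithelial markers 0 passed in limma, against 0.608% of all entries higher and 0.573% lower. At an unadjusted p under 0.05, 4 were higher, again with no share of all entries to judge that count by. The part of these markers in the rise of Slc3a2 was not tested.

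After resection Slc3a2 was lower again. It had 312, 367, 348 and 297 RPKM at d22, against 639, 581, 567 and 633 RPKM at d15, with no overlap (log2 difference -0.87 ± 0.13, adjusted p = 0.00273), and it passed in all 8 fits that left out a library. The d22 mean of 331 ± 32.3 RPKM stood beside 336 ± 45.0 RPKM at d0 (SD, n = 4 each), a difference of -0.02 ± 0.13 (adjusted p = 0.956). Slc43a3 had 199, 242, 208 and 225 RPKM at d22, all below its d15 values, and fell by 0.46 ± 0.12 on the log2 scale against d15 (adjusted p = 0.0399). These 2 genes were 13.3% of the 15, against 1.06% of all entries that fell against d15. Both had every d22 library below every d15 library, as had 4.8% of all entries. None rose in limma, against 2% of all entries, with 1 gene higher at an unadjusted p under 0.05. The call of Slc43a3 held in 1 of 8 fits, without d22 replicate 4, and its adjusted p was at most 0.123, without d22 replicate 1. It was also lost with quantile normalization (-0.26, adjusted p = 0.145) and with the length and GC trend removed (-0.46, adjusted p = 0.0622). With the replicate number as a block it was lost too (-0.44, adjusted p = 0.0617).

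**Figure D3:**
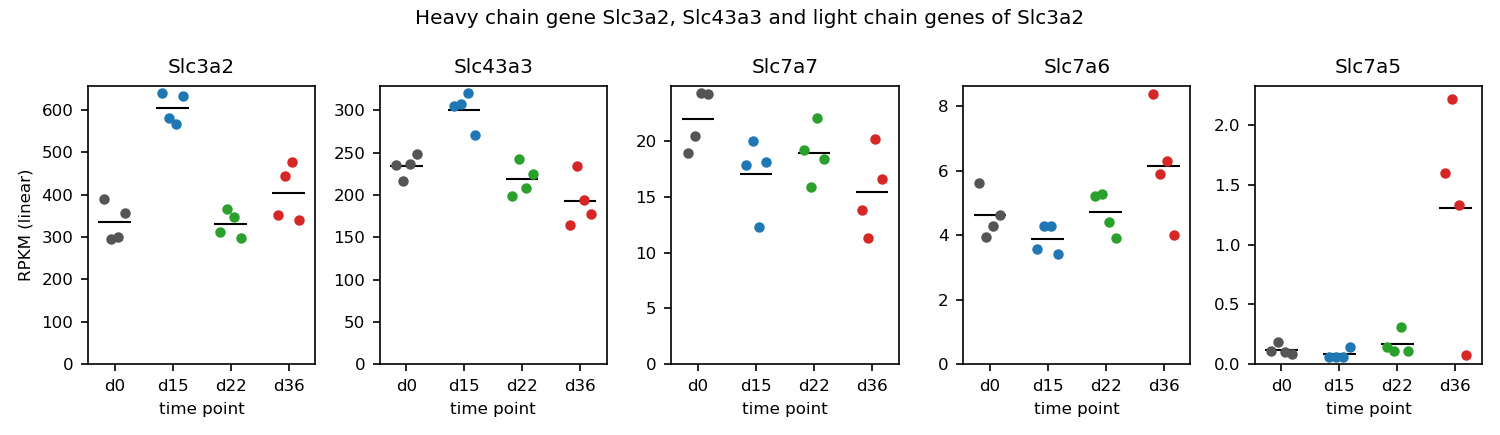
RPKM of the heavy chain gene Slc3a2, of Slc43a3 and of the light chain genes Slc7a7, Slc7a6 and Slc7a5 at each time point, on linear axes from 0. Points are libraries in the order of their replicate numbers and lines are means of 4; the d15 points of Slc3a2 (567 to 639 RPKM) lie above those of every other time point.

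Slc38a2, the sodium-coupled carrier of small neutral amino acids that amino acid shortage is known to induce, had higher means at each later time point. Its libraries had 26.9, 29.5, 22 and 29.9 RPKM in the d0 group, 38.8, 28, 42 and 40.6 in the d15 group, 47.8, 46.0, 37.4 and 48.1 in the d22 group, and 75.9, 91.0, 61.5 and 37.7 in the d36 group. All libraries at d22 and at d36 lay above those at d0, while d15 overlapped with d0 through replicate 4. The difference from d0 was 0.44 ± 0.21 at d15 (adjusted p = 0.299), 0.71 ± 0.21 at d22 (adjusted p = 0.0298) and 1.2 ± 0.21 at d36 (adjusted p = 0.000772). The 3 values share the d0 libraries. At d22 the call was lost without d0 replicate 1 or 3 or d22 replicate 1, 4 or 6 (adjusted p at most 0.0898), and with the trend of transcript length and GC content removed (0.49, adjusted p = 0.153). At d36 it passed in all 8 such fits, with a change of 1.45 without replicate 9.

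Slc38a2 was the 1 gene of the 15 that rose at d22 against d0, 6.67%, below the 8.09% of all entries. None fell in limma, against 7.1% of all entries, nor was any lower at an unadjusted p under 0.05. Ranges at d22 lay wholly above d0 for Slc38a2 and Slc36a4, 13.3% of the genes, against 14.2% of all entries. Slc6a6, which takes up taurine, had 35.1, 35.8, 31.7 and 33.7 RPKM at d22, against 20.8, 24.3, 31.9 and 15.8 RPKM at d0. Its d22 libraries were close together and 1 d0 library reached them, and the difference of 0.58 ± 0.29 did not pass (adjusted p = 0.19). In limma it passed with only the groups compared (0.58 ± 0.17, adjusted p = 0.0286) and with the replicate block (0.92 ± 0.19, adjusted p = 0.0195), and in no other alternative. The block rests on replicate numbers that were not taken to pair the libraries. The authors' deposited table lists a log2 fold change of 0.57 with an adjusted p-value of 0.00501 for Slc6a6 at d22.

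The comparison of d36 with d0 asks what differed once the lung itself held metastases. Of the 15 genes 4 rose, 26.7%, against 16.6% of all entries, and 1 fell, 6.67%, against 7.37%. Quantile normalization gave 2 rises and 2 falls, beside 1713 and 1980 among all 14303 entries. Median-of-ratios scaling gave 3 and 2, beside 2076 and 1561. All d36 libraries lay above d0 for Slc38a2, Slc7a6os and Slc36a4, 20% of the genes, against 13.9% of all entries. Without d36 replicate 9, 6 genes rose, 40%, against 21.8% of all entries, and 1 fell, against 13.3%. Besides Slc38a2, the rises were in Slc1a5, Slc7a1 and Slc7a6os.

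Slc1a5, the sodium-dependent exchanger of glutamine and other neutral amino acids, had 7.95, 7.54, 4.96 and 0.84 RPKM in d36 replicates 1, 7, 8 and 9, against 0.898, 1.38, 1.01 and 0.428 RPKM at d0. Replicates 1, 7 and 8 were above every d0 library and replicate 9 lay within the d0 range. The rise of 1.5 ± 0.39 (adjusted p = 0.0109) passed in all 8 fits that left out a library and was 2.02 without replicate 9. With only d36 and d0 fitted its adjusted p was 0.0496. Against d22, with 1.30, 1.16, 0.61 and 2.08 RPKM, the rise was 1.27 ± 0.39 (adjusted p = 0.0432), and it held in 1 of the 8 fits, without d36 replicate 9 (1.79, adjusted p = 0.000102). In the other 7 fits its adjusted p was 0.058 to 0.129, and it was 0.0741 with a pseudocount of 0.1, 0.0501 with median-of-ratios scaling and 0.129 with only the groups compared.

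Slc7a1, the main carrier of arginine and lysine into many cells, had 1.67, 2.20, 2.42 and 0.973 RPKM at d36, against 1.12, 0.732, 1.30 and 0.532 RPKM at d0. Replicate 9 again lay within the d0 range. Its rise was 0.54 ± 0.17 (adjusted p = 0.0309) and did not pass without d0 replicate 2 or 4 or d36 replicate 1, 7 or 8 (adjusted p at most 0.105), while without replicate 9 it was 0.70 (adjusted p = 0.00243). Nor did it pass with quantile normalization, with the length and GC trend removed or with only the groups compared (adjusted p = 0.0829, 0.0894 and 0.0905). With the replicate block it was 0.34 (adjusted p = 0.366).

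Slc7a6os had 2.07, 1.99, 1.72 and 1.83 RPKM at d36, against 1.08, 1.30, 0.857 and 1.32 RPKM at d0, with no overlap and with replicate 9 among the others. The rise of 0.44 ± 0.15 (adjusted p = 0.0375) passed in 2 of 8 fits, without d0 replicate 2 (0.48) or d36 replicate 9 (0.45), and was 0.21 with the length and GC trend removed (adjusted p = 0.317). It also missed with quantile normalization, median-of-ratios scaling, a pseudocount of 0.1 and the replicate block (adjusted p = 0.0869, 0.059, 0.0543 and 0.25). Its minus-strand gene (chromosome 8, 106200717 to 106210935) lies tail to tail with Slc7a6 (106168857 to 106198706, plus strand), without overlap in GENCODE M21. Whether strand was used in counting is not given in the sources used here.

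Slc7a7 was the gene that fell at d36, with 13.8, 11.3, 20.2 and 16.6 RPKM at d36, against 18.9, 20.5, 24.3 and 24.2 RPKM at d0. The ranges overlapped through d36 replicate 8. The change of -0.50 ± 0.17 (adjusted p = 0.0381) passed without d0 replicate 1, d36 replicate 8 or d36 replicate 9 (-0.54 without the last). It did not pass in the other 5 fits that left out a library (adjusted p at most 0.127). Nor did it pass with array weights, only the groups compared or the replicate block (adjusted p = 0.07, 0.0733 and 0.312). Slc3a2 averaged 403 ± 68.4 RPKM at d36 (0.26 ± 0.13 against d0, adjusted p = 0.176). Slc7a6 had 8.38, 5.89, 6.29 and 3.99 RPKM at d36, against 5.61, 3.93, 4.29 and 4.64 RPKM at d0 (0.32 ± 0.16, adjusted p = 0.158), and passed without d36 replicate 9 (0.48, adjusted p = 0.0135). At d36 the authors' deposited table lists adjusted p-values of 0.0713 for Slc7a1, 0.0446 for Slc7a7 and 0.0046 for Slc7a6os. It lists 0.000121 for Slc1a5 and 6.44e-06 for Slc38a2.

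Some of the widest differences at d36 were in genes that had at least 1 RPKM in d36 replicates 1, 7 and 8 alone and so were not tested. Slc38a4, a carrier of neutral amino acids known from liver and placenta, had 21.7, 12.5, 11.4 and 0.949 RPKM in d36 replicates 1, 7, 8 and 9, against 0.016, 0.00476, 0.113 and 0.0439 RPKM at d0. The d0 values stand for 3, 1, 25 and 9 reads, found as whole multiples of the step within 0.1 read. Every d36 library lay above every d0 library, and replicate 9 lay about an order of magnitude below the other d36 libraries. Slc38a1, a sodium-coupled glutamine carrier, had 4.63, 2.41, 3.12 and 0.336 RPKM at d36, against 0.111, 0.17, 0.136 and 0.249 RPKM at d0, again with no overlap. Slc7a5 had 1.60, 2.22, 1.33 and 0.0747 RPKM at d36, against 0.106, 0.183, 0.097 and 0.0856 RPKM at d0, so that replicate 9 lay below every d0 library.

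With all 17645 entries above 0 fitted, these 3 genes rose at d36 against d0: Slc38a4 by 3.15 ± 0.49 (adjusted p = 0.000536), Slc38a1 by 1.46 ± 0.28 (adjusted p = 0.00209) and Slc7a5 by 0.94 ± 0.22 (adjusted p = 0.00705). In that fit 7 of the 23 genes rose, 30.4%, against 17.7% of all entries, and 1 fell, against 6.36%. Against d22 4 rose, 17.4%, against 10.6%. Exact permutation tests of d36 against d0, two-sided, gave p = 0.0286 for Slc38a4 and for Slc38a1, the smallest that 4 against 4 libraries allow, and p = 0.143 for Slc7a5. A fit without d36 replicate 9 and without the filter, chosen after the values were seen, had 11 rises among the 23 genes against d0, 47.8%, beside 22.8% of all entries, and 9 against d22, 39.1%, beside 17.6%. In it the neutral exchanger gene Slc1a4 rose by 0.67 ± 0.10 (adjusted p = 0.000119) and the glycine transporter gene Slc6a9 by 0.47 ± 0.14 (adjusted p = 0.0171), beside Slc36a4, Slc7a6 and the genes named above. Slc1a4 had 1.2, 1.16, 1.08 and 0.168 RPKM at d36, against 0.47, 0.427, 0.267 and 0.259 RPKM at d0.

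Slc38a4 had more reads in 3 of the 4 d22 libraries than in any library at d15 or d0, with 0.253, 0.077, 0.222 and 0.267 RPKM or 54, 16, 47 and 58 reads, against 3, 22, 1 and 8 reads at d15 and 3, 1, 25 and 9 at d0. The ranges overlapped through d22 replicate 4, and an exact permutation test, two-sided, gave p = 0.0571 for d22 against either. Limma without the filter gave 0.20 ± 0.49 for d22 against d0 and 0.21 ± 0.49 against d15 (adjusted p = 0.848 and 0.886). The authors' deposited table lists a log2 fold change of 1.54 with an adjusted p-value of 0.0184 for Slc38a4 at d22. It gives no adjusted p-value for Slc38a4 at d15 or d36.

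**Figure D4:**
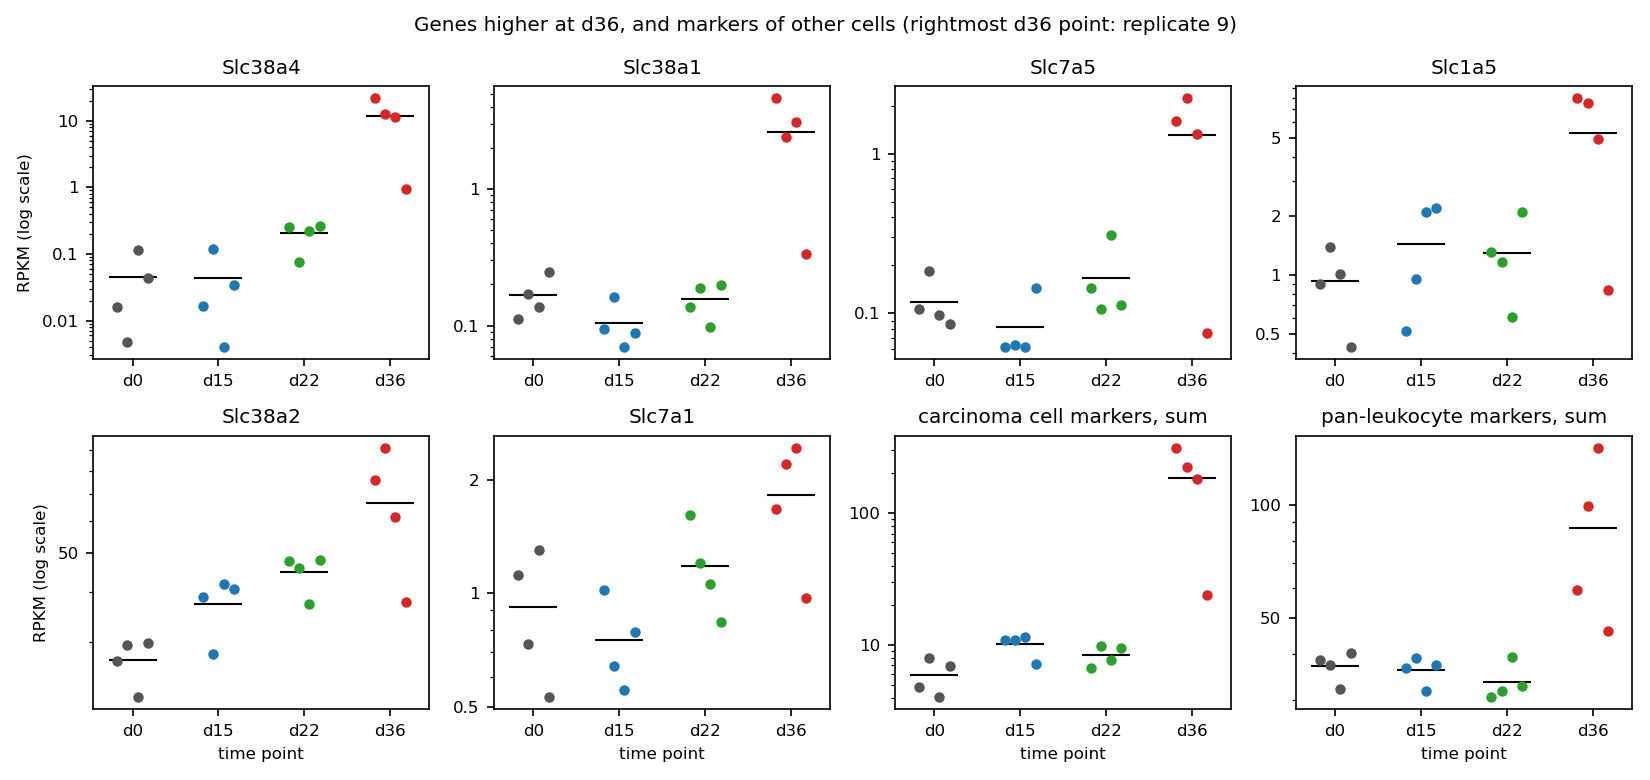
RPKM of 6 transporter genes and the summed RPKM of carcinoma cell and pan-leukocyte markers at each time point, on log axes. Points are libraries in the order of their replicate numbers and lines are means of 4; the rightmost d36 point, replicate 9, is the lowest of its group in each panel, at 0.949 RPKM for Slc38a4 and 23.8 RPKM for the carcinoma markers.

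Markers of tumour cells, leukocytes and fibroblasts were also high in d36 replicates 1, 7 and 8. The 9 carcinoma markers found, of 10, added up to 310, 224, 180 and 23.8 RPKM in d36 replicates 1, 7, 8 and 9, against 4.06 to 8.0 RPKM at d0. Of the transporter genes drawn beside this sum, Slc38a4 and Slc1a5 had the same order as it over the d36 libraries. Slc38a1, Slc38a2, Slc7a5 and Slc7a1 did not, while replicate 9 was the lowest in each of these genes. Rhox5, a carcinoma marker, had 148, 97.8, 91.6 and 11.1 RPKM at d36 and at most 0.196 RPKM at d0. The keratin genes Krt8 and Krt18, which the epithelial list also holds, had 57.6, 44.7, 29.2 and 2.55 RPKM and 90.1, 71.2, 46.1 and 5.66 RPKM at d36, against at most 1.15 and 2.69 RPKM at d0. Epcam stayed at 0.0465 to 0.174 RPKM at d36 and Hmga2 was listed at 0 in all 4 d0 libraries. The 9 leukocyte markers found, of 10, added up to 59.4, 99.2, 142 and 46.1 RPKM at d36, against 32.2 to 40.1 RPKM at d0. Most of the d0 sum was Lcp1, with 31.4 to 35.8 RPKM at d0 and 33.4, 34.1, 43.8 and 33.4 RPKM at d36. Every other leukocyte marker found had at most 1.21 RPKM at d0. At d36 these others each had 0.629 to 19.9 RPKM in replicates 1, 7 and 8 and 0.496 to 2.94 RPKM in replicate 9. No count of called carcinoma or leukocyte markers is given, since Rhox5 and, of the leukocyte list, Cd52, Itgb2 and Rac2 passed the filter through the d36 libraries alone. The 8 fibroblast and mural markers found, of 10, added up to 57.4, 43.5, 53.4 and 12.8 RPKM at d36, against 10.5 to 16.3 RPKM at d0. Of 5 tested 1 rose, 20%, against 16.6% of all entries, or 4 without replicate 9, 80%, against 21.8%. Of this list the collagen-binding proteoglycan gene Lum had 22.8, 11.8, 26.7 and 1.01 RPKM at d36, against 0.52 to 0.932 RPKM at d0. Not every gene of the list did so. Tagln had 13, 8.66, 9.13 and 8.34 RPKM at d36, overlapping with 5.99 to 10.7 RPKM at d0. Rgs5 had 1.71, 1.46, 2.68 and 1.61 RPKM at d36, overlapping with 0.553 to 1.56 RPKM at d0. Pan-endothelial markers added up to 3330 to 4460 RPKM at d36 and 4990 to 5900 RPKM at d0. Of these 10 genes 2 fell, 20%, against 7.37% of all entries, or 5 without replicate 9, 50%, against 13.3%. The part of these other cells in the d36 results was not tested. In sorted bulk RNA, more cells of a type and more RNA per cell cannot be told apart.

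The comparison of d36 with d22 sets the lung with metastases against the time after resection. Of the 15 genes Slc1a5 rose, 6.67%, against 8.73% of all entries, and none fell in limma, against 3.07%, nor was any lower at an unadjusted p under 0.05. Without d36 replicate 9, 5 genes rose, 33.3%, against 16% of all entries: Slc1a5, Slc38a2 (0.74, adjusted p = 0.00292), Slc7a1 (0.51, adjusted p = 0.0217), Slc7a6 (0.45, adjusted p = 0.0233) and Slc7a6os (0.46, adjusted p = 0.043).

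The remaining tested genes passed in none of the 5 comparisons. Of the lysosomal carriers, Slc38a7, which exports glutamine, ranged from 1.51 to 3.23 RPKM over the 16 libraries, and Slc38a9, which senses arginine for mTORC1, from 0.883 to 1.40 RPKM. Slc38a6 ranged from 1.25 to 2.62 RPKM, Slc38a10 from 13.7 to 32.8 RPKM and Slc6a8 from 1.11 to 2.52 RPKM. Among those below the filter, Slc43a2, a carrier of large neutral amino acids, ranged from 0.317 to 1.13 RPKM. Slc6a14, a broad sodium- and chloride-coupled carrier, had at most 0.175 RPKM and was listed at 0 in 3 d0 libraries and in d36 replicate 7.

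Genes around amino acid supply were read from lists chosen with earlier results of these data known. Of 16 tested genes of the amino acid response, 7 rose and none fell at d36 against d0, or 43.8%, against 16.6% of all entries higher and 7.37% lower. The median was 0.41, beside 0.04 over all entries, and without d36 replicate 9 8 rose, 50%, against 21.8% of all entries. Phgdh passed the filter through the d36 libraries alone, so a rise at d36 was largely fixed by the filter. It is counted in the rises at d36 against d0 and against d22, with and without replicate 9, and adds no support to them. Phgdh, the first enzyme of serine synthesis, averaged 9.26 ± 6.00 RPKM at d36 and 0.241 ± 0.0247 RPKM at d0. The stress factor gene Atf3 averaged 99.3 ± 94.8 RPKM at d36 and 9.54 ± 1.31 RPKM at d0 (2.67 ± 0.52, adjusted p = 0.00172), and the change was 3.31 without replicate 9. Ppp1r15a, which reverses the block of translation, rose by 1.14 and the stress gene Nupr1 by 1.25 (adjusted p = 0.00125 and 0.00477). Against d22 9 of the 16 rose at d36, Phgdh included, 56.2%, against 8.73% of all entries. Without replicate 9 these were 11, again with Phgdh, 68.8%, against 16%. Among them were Atf4 itself, at 92.0 ± 17.7 RPKM at d36 and 63.3 ± 8.2 RPKM at d22 (0.52 ± 0.13, adjusted p = 0.0157), and the folate enzyme gene Mthfd2 (1.82, adjusted p = 0.0132), which had 0.65 and 2.40 without replicate 9.

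At d15 the list had 1 rise against d0, Trib3, an Atf4 target and inhibitor, at 4.95 ± 0.589 RPKM at d15 and 3.01 ± 0.442 RPKM at d0 (0.57 ± 0.13, adjusted p = 0.0461). At d22 it had 1 fall, Atf4, with 63.3 ± 8.2 RPKM at d22 and 85.3 ± 3.65 RPKM at d0 (-0.43 ± 0.13, adjusted p = 0.0325). Of 19 tested aminoacyl tRNA synthetase genes, which charge tRNAs, 4 rose at d36 against d0, 21.1%, near the 16.6% of all entries: Rars (0.77), Vars (1.42), Nars (0.42) and Eprs (0.36), at adjusted p of at most 0.0464. None of them passed at d15 or d22 against d0 in limma, with 1 lower at d15 and 1 higher and 1 lower at d22 at an unadjusted p under 0.05. Without d36 replicate 9, 7 of the 19 rose at d36, 36.8%, against 21.8% of all entries. Against d22 2 of the 19 rose at d36, 10.5%, against 8.73% of all entries, and 11 without replicate 9, 57.9%, against 16%.

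Genes that use the imported amino acids had 4 rises among 14 at d36 against d0, 28.6%, against 16.6% of all entries. They had 0 falls in limma, against 7.37% of all entries, with 1 lower at an unadjusted p under 0.05, and the same counts without d36 replicate 9. Odc1, the enzyme that makes polyamines from ornithine, rose by 1.55 at d36, the aminotransferase gene Got1 by 1.02 and the glutathione reductase gene Gsr by 0.70 (adjusted p = 0.000456, 0.0109 and 0.029), and without replicate 9 they had 1.90, 1.40 and 0.90. Ass1, which remakes arginine from citrulline, rose at d22 (3.30 ± 0.167 RPKM at d22 and 1.76 ± 0.536 RPKM at d0, adjusted p = 0.00692), and Gss, of glutathione synthesis, fell by 0.43 (adjusted p = 0.0225).

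Of 21 tested genes of lysosomal sensing and mTORC1, the kinase complex that answers to amino acids, 1 rose and 5 fell at d22 against d0, 4.76% and 23.8%, against 8.09% and 7.1% of all entries. Fnip1, a partner of folliculin, rose by 0.74, and the Ragulator genes Lamtor4 and Lamtor2 fell by 0.80 and 0.59 (adjusted p = 0.000965, 0.00186 and 0.00207), as did Nprl3, of the complex that restrains the pathway, by 0.47 (adjusted p = 0.00883). At d36 4 rose and 3 fell against d0, 19% and 14.3%, against 16.6% and 7.37% of all entries, and 4 and 4 without replicate 9. Deptor, an inhibitor in the complex, was at 2.35 ± 0.741 RPKM at d36 and 0.78 ± 0.112 RPKM at d0 (0.89 ± 0.15, adjusted p = 0.00058), and the change was 1.00 without replicate 9. Rheb, its activator, rose by 0.59 and Wdr24, of the complex that relieves the restraint, fell by 0.58 (adjusted p = 0.00162 and 0.00498).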

How the data were processed

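The authors deposited 1 table with an RPKM value per library, per the file headers, and the authors also deposited an adjusted p-value and a log2 fold change for each of d15, d22 and d36, whose comparison group is not named. The submitters' processing notes name STAR, DESeq2 and mm10, with no role for any. Each library took 10 ng of RNA into a SMARTer Ultra Low kit, per the labels' protocols. The annotation and gene lengths behind RPKM are not given in the sources used here. Groups followed the labels, and replicate numbers the titles. Members and gene lists were chosen with earlier results of these data known. Values were analysed as log2(RPKM + 1) with limma 3.58.1 (R 4.3.3, intensity trend, 4 groups in 1 fit, no covariate, two-sided), for entries that reached 1 RPKM in 4 or more of the 16 libraries. Relative depth was taken from low values that are whole multiples of 1 read (92% to 100% of the low entries checked per library came out whole within 0.05 read), and scaled with 37 of 74 single-transcript genes; reads were recovered for low genes only, so no count test was run. P-values measure the spread between these libraries. The procedure was tested on simulated data. Named genes are all members, each with its libraries where it passed against d0 or belongs to a heavy or light chain, and up to 4 genes of each list by smallest adjusted p; 1 gene that this rule names is not reported here. Alternatives covered pseudocount, filter, scaling, array weights, groups fitted, replicate block, length and GC content, and each library left out. Coordinates are those of GENCODE M21 and RefSeq (GRCm38, the build named mm10).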

Additional observations from a re-analysis of the deposited data

Results flagged for a closer look

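Of the 92 sets of 4 libraries checked for the 23 genes, 7 had a library whose gap to the next exceeded the Dixon limit for 4 values on the log2(RPKM + 1) scale, and chance alone flags about 1 in 20. At d36, replicate 9 was low for Slc1a4 (0.168 RPKM, against 1.08 to 1.2 in the other 3) and for Slc6a6 (17.1 RPKM, against 32.9 to 35.7), and replicate 7 was high for Slc36a4 (5.60 RPKM, against 3.37 to 3.63). At d22, replicate 5 was low for Slc1a4 (0.244 RPKM, against 0.637 to 0.713) and replicate 6 was high for Slc38a7 (2.45 RPKM, against 2.18 to 2.20). At d15, replicate 6 was high for Slc7a5 (0.143 RPKM, against 0.0616 to 0.0633). At d0, replicate 1 had 0.0295 RPKM of Slc6a14, or 2 reads, and the other 3 libraries were listed at 0.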

How the results depend on the processing

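The rise of Slc3a2 at d15 against d0 and its fall at d22 against d15, and the rises of Slc38a2 and Slc1a5 at d36 against d0, passed in every alternative run but 1: with the replicate number as a block Slc3a2 at d15 had 0.83 (adjusted p = 0.0552). The 10 called changes kept their direction in all 160 alternative fits and passed in 105 of them. Same-numbered libraries had deviations correlated at -0.11 to 0.22, so the numbers were not taken to pair them. With the replicate block, counts of genes became 0 higher at d15 against d0 (1 without it), 2 higher at d22 against d0 (1), 2 higher and 0 lower at d36 against d0 (4 and 1), and 1 higher and 1 lower at d22 against d15 (0 and 2). Among all 14303 entries the block gave 79 higher at d15 against d0 (87 without it) and 983 at d22 (1157). At d36 against d0 they were 965 higher and 169 lower (2376 and 1054). At d22 against d15 they were 477 and 258 (286 and 151). Array weights gave 2 higher at d22 against d0 and 6 higher at d36 against d22 (1 without them). Among all 14303 entries they gave 2198 and 2553 higher (1157 and 1249 without them). With the length and GC trend removed there were 0 higher at d22 against d0, 2 higher and 3 lower at d36 against d0, 1 lower at d22 against d15 and 1 lower at d36 against d22. Among the 9610 entries of that fit 353 were higher at d22 against d0, and 976 higher and 1473 lower at d36 against d0. There were 45 lower at d22 against d15 and 486 lower at d36 against d22. Fits of only the groups compared gave 2 higher at d22 against d0, 0 lower at d36 against d0 and 0 higher at d36 against d22. Among all entries those fits gave 1785, 528 and 359 in the same order. Without the filter 7 were higher at d36 against d0 and 4 against d22, 30.4% and 17.4%, against 17.7% and 10.6% of all entries. Quantile normalization gave 2 higher and 2 lower at d36 against d0, 1 lower at d22 against d15, and 2 higher and 1 lower at d36 against d22. Among all entries it gave 1713 higher and 1980 lower at d36 against d0, and 160 lower at d22 against d15. At d36 against d22 it gave 929 higher and 899 lower. Median-of-ratios scaling gave 2 lower at d36 against d0 and 0 higher at d36 against d22, as did a pseudocount of 0.1 for the last. Among all entries the scaling gave 1561 lower at d36 against d0 and 1059 higher at d36 against d22. The pseudocount gave 1185 higher at d36 against d22. Without d36 replicate 9 and without the filter, chosen after seeing the data, 11 were higher at d36 against d0 and 9 against d22. Of all entries 22.8% and 17.6% were higher in that fit. Fits that each left out 1 library gave 1 higher and 0 lower at d15 against d0, 0 to 1 higher and 0 lower at d22 against d0, 2 to 6 higher and 0 to 1 lower at d36 against d0, 0 higher and 1 to 2 lower at d22 against d15, 0 to 5 higher and 0 lower at d36 against d22, and 3 to 6 in the F test. Among all entries the same fits gave 14 to 41 higher and 10 to 48 lower at d15 against d0. They gave 720 to 1030 and 446 to 761 at d22, and 1788 to 3115 and 638 to 1898 at d36, again against d0. There were 80 to 281 and 41 to 213 at d22 against d15. At d36 against d22 there were 712 to 2291 and 160 to 1480. The cause of these shifts was not tested. Genes under 1 RPKM rest on few reads in some libraries, down to 1 read of Slc38a4.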

Other observations

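Slc38a1, Slc38a2 and Slc38a4 are neighbours on chromosome 15 (GRCm38), from 96571418 to 97055956 on the minus strand, a fact looked up after their d36 values had been seen. Among the other 10 entries of the table that GENCODE M21 places between 96000000 and 98000000, Arid2, a chromatin remodeller gene before Slc38a1, had 7.88 RPKM at d36 and 5.17 RPKM at d0 (0.52 on the log2 scale, limma adjusted p = 0.0037). Scaf11, between them, had 0.48 (adjusted p = 0.0619). On the far side of Slc38a4, Amigo2 (0.04), Pced1b (-0.20) and Rpap3 (0.08) did not pass, with adjusted p of 0.906, 0.159 and 0.644. Further on, Endou (-0.87, adjusted p = 0.00258) and the heme transporter gene Slc48a1 (-0.75, adjusted p = 0.00264) fell, and Rapgef3, Hdac7 and Tmem106c did not pass (adjusted p = 0.0738, 0.0515 and 0.912). Without d36 replicate 9, Arid2 had 0.44 and Scaf11 0.64 (adjusted p = 0.00579 and 0.00626), Endou -1.07 and Slc48a1 -0.82 (adjusted p = 3.56e-05 and 0.000991), and Hdac7 -0.42 (adjusted p = 0.049).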
